A study of Marchantia polymorpha and Klebsormidium nitens with 56 samples.

Results

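A set of 31 genes of the liverwort *Marchantia polymorpha* had transcript levels at or below 0.25 of control after heat in each of 3 lines. These lines were the male wild type Tak-1, the female wild type BC3 and the line titled hsfa1y. Levels are in CPM, a gene's counts per M reads of the library's total, averaged over the 2 libraries of a group. The ratio was heat over control with 0.5 CPM added to each. Genes of the V chromosome (the male sex chromosome) and genes below 3 CPM in Tak-1 controls were left out, as were 3 named genes, of which 2 had passed and MpERF21 had not. The 31 members come from 20574 genes in the table and from 10578 that met the level and chromosome limits. The set was proposed as heat-lowered genes independent of HSFA1. The data bear on that name only in part. The line hsfa1y is labelled as lacking HSFA1Y, and no line used here is labelled as lacking both HSFA1Y and HSFA1X. The hsfa1y line has a male background and the hsfa1x line a female one, and a chromatin sample of the series is titled HSFA1V. Whether male plants carry an HSFA1 gene besides HSFA1Y was not checked. The set is therefore called below by its rule, the heat-lowered members.

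Transcripts were counted in whole gemmalings, the young plants that grow from gemmae (vegetative propagules). They were 7 days old, from continuous light at 22 °C. Heated plants were kept at 37 °C, and the protocol names 1 and 5 h of heat without saying which was used for each of these libraries. Each of the 14 groups held 2 libraries, which the design text calls biological replicates. Heated and control plants were taken of hsfa1x (female background), hsfb1 and hsfa1y (male background), BC3 and Tak-1. Unheated plants alone were taken of the lines overexpressing HSFA1Y or HSFA1X, each in Tak-1 and in BC3. The labels disagree on hsfa1x, which is marked "ox" as its genotype but xko in the sample sheet, where the overexpression lines have entries of their own. It is taken as a knockout here, as hsfa1y and hsfb1 are by both. The promoter of the overexpression constructs, the number of independent lines and the mutations are not stated. The targeted genes could not be paired with identifiers by name, so their state in these lines was not checked.

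Heat shock transcription factors of class A1 are known in *Arabidopsis* as the activators that switch on chaperone genes in heat, and the class B1 factor as a repressor of heat-responsive genes. Heat lowers the levels of many plant transcripts while those of chaperones rise. Tests of heat below rest on hsfa1x and hsfb1, whose libraries the rule did not use.

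Of the 31 members, 29 matched a locus tag of the reference and 6 carried a gene symbol. MpSAUR14 (Mp1g27920) and MpSAUR12 (Mp1g27940) belong to the small auxin up RNA family, which was named for rapid induction by the growth hormone auxin. MpIDA4 (Mp7g10970) is named for IDA, in *Arabidopsis* a secreted peptide that signals through the HAESA receptor kinases in organ shedding. MpPOD26 (Mp3g15330) is named as a peroxidase, and plant peroxidases of the secreted kind oxidise phenolics in the cell wall. MpGH19.7 (Mp4g20450) is of glycoside hydrolase family 19, which holds chitinases. The sixth is MpIDDL2 (Mp1g15660). The other 25 members are given by identifier alone. By the chromosome written in the identifiers, 8 members lie on chromosome 2, 6 on chromosome 1, 5 on chromosome 4, 4 each on chromosomes 5 and 8, and 2 each on chromosomes 3 and 7. Chromosome 6 held 0. Of the 10578 genes, 13.4% lie on chromosome 2, 18.8% on chromosome 1, 12.3% on chromosome 4, 11.4% on chromosome 5, 9.25% on chromosome 8, 13.4% on chromosome 3, 10.52% on chromosome 7 and 10.8% on chromosome 6. MpSAUR14 and MpSAUR12 lie in a run of SAUR genes with MpSAUR13 between them, and Mp4g03340 and Mp4g03350 are neighbours by identifier. How reads matching more than 1 gene were counted is not stated, so values of such neighbours may share reads.

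Libraries held 17.7 to 23.997 M reads (median 20.1 M). The chi-square per degree of freedom between both libraries of a group, which is 1 under counting error alone, ran from 2.30 to 18.7 and was 18.2 in the hsfa1x controls. Summed V-linked levels were 2071 to 2707 CPM in libraries labelled as male background and 385 to 948 CPM in those labelled female.

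The members were chosen by the ratios of heat to control in hsfa1y, BC3 and Tak-1, so these ratios are given as a description. The median ratio of heat to control over the 31 members was 0.183 in hsfa1y, 0.148 in BC3 and 0.115 in Tak-1, beside 1.06, 0.897 and 0.932 over the 10578 genes. A ratio of 0.25 or less was held by 0.652% of those genes in hsfa1y, 1.08% in BC3 and 1.69% in Tak-1. The ratio was higher in hsfa1y than in Tak-1, meaning a smaller fall, for 24 members and lower for 7, with a median difference of 0.57 and a range of -0.26 to 1.68 on the log2 scale. A higher ratio in hsfa1y than in Tak-1 was also held by 75.6% of the 10578 genes, a share close to that of the members. Heated plants of hsfa1y held a higher mean level than heated Tak-1 for 30 members, MpIDDL2 being the exception, and for 71.3% of the 10578 genes. The heated Tak-1 levels are among the values that chose the members. Summed gemma markers (KAR and GCAM1) were 43.3 to 52.1 CPM in heated hsfa1y and 15.1 to 19.4 CPM in its controls, against 15.8 to 16.6 CPM in heated Tak-1 and 18.03 to 19.7 CPM in its controls. Summed oil body cell markers were 36.1 to 37.8 CPM in heated hsfa1y and 27.7 to 30.6 CPM in its controls, against 20.8 to 27.4 CPM in heated Tak-1 and 39.1 to 42.3 CPM in its controls. Summed reproductive markers (DUO1, RKD and PRM) were 68.7 to 72.0 CPM in heated hsfa1y and 67.8 to 84.1 CPM in its controls. In Tak-1 these were 47.8 to 52.7 CPM with heat and 89.6 to 90.8 CPM in controls. Values of single markers within the sums are not given here. The part of these markers in the levels of the members was not tested. The largest gap in the fall between hsfa1y and Tak-1 was at Mp2g25910, which had 4.90 and 7.25 CPM in heated hsfa1y and 65.9 and 69.4 CPM in its controls. In Tak-1 it had 1.41 and 1.99 CPM with heat and 73.4 and 71.5 CPM without. Members just inside the limit were Mp4g15980 (largest of the 3 ratios 0.247), Mp1g10250 (0.247) and Mp2g03110 (0.246). Just outside it were MpERF21 (0.253), of the ethylene response factor family, MpIAMT1 (Mp7g11980, 0.255) and Mp5g24330 (0.265).

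**Figure D1:**
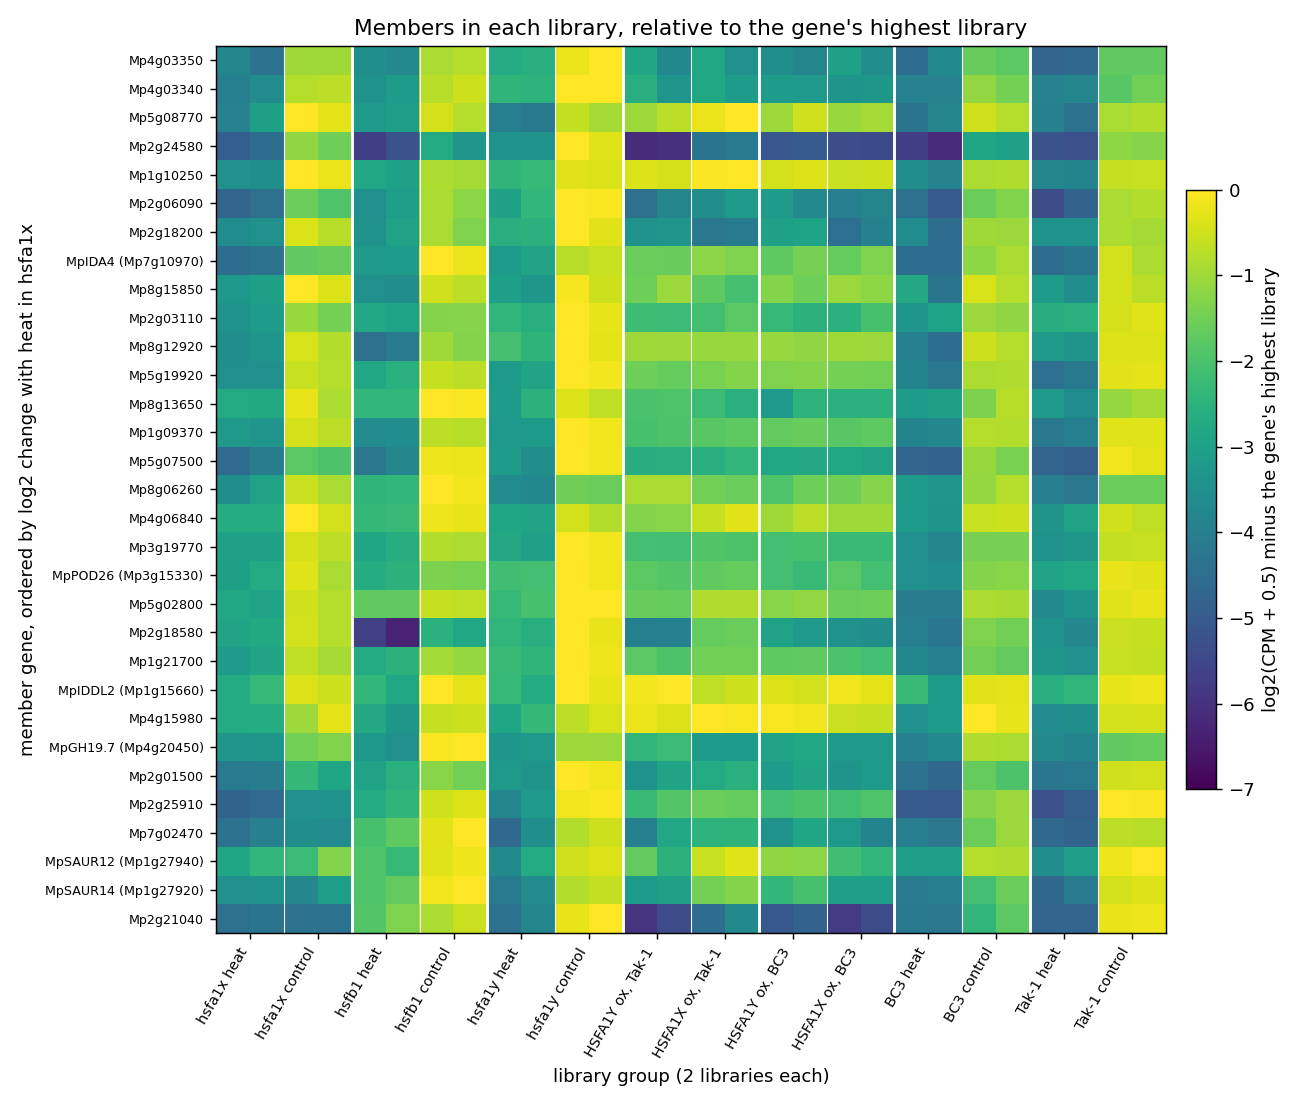
Level of each of the 31 members (rows, ordered by the log2 change with heat in hsfa1x) in each of the 28 libraries (columns, 2 per group), as log2(CPM + 0.5) minus the value in the gene's highest library, so that 0 is the highest. Heated libraries are dark beside their controls in the lines hsfb1, hsfa1y, BC3 and Tak-1, the rows of Mp2g21040 and MpSAUR14 at the bottom show nearly equal colours in heated and control hsfa1x, and many rows are dark in the 4 groups of unheated overexpression lines.

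In hsfa1x, 28 of the 31 members were lower with heat and 0 were higher, where 22.0% of the 13432 genes tested were lower and 19.8% higher (edgeR's quasi-likelihood test, Benjamini-Hochberg adjusted p below 0.05, all 31 members having passed the filter on low counts). A fall of at least 2-fold was called for 28 members, beside 5.43% of genes tested, and one of at least 4-fold for 24, beside 1.15%. The median log2 change was -2.59 over the members and -0.00044 over all genes tested, and the members ranged from -3.83 to 0.02. In 29 members both heated libraries lay below both controls, which held for 34.9% of genes tested. The 3 members not called were Mp2g21040, MpSAUR14 and Mp7g02470. In bulk tissue a fall can mean fewer cells of a type or less RNA per cell, which cannot be told apart here.

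In hsfb1, all 31 members tested were lower with heat, where 21.6% of genes tested were lower and 18.8% higher (edgeR's quasi-likelihood test, largest adjusted p = 9.90e-04 at Mp2g21040). The fall was at least 2-fold for 30 of them, beside 4.83% of genes tested, and at least 4-fold for 23, beside 1.19%. The median log2 change was -2.35 over the members and -0.04 over all genes tested, with a range of -4.01 to -0.90. Both heated libraries lay below both controls in all 31 members, which held for 38.1% of genes tested. In both hsfa1x and hsfb1 together, which share no library, 28 members were called lower, where 15.5% of genes tested were. These shares are read against a set picked for a large fall under the same treatment in other lines.

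MpIDA4, the peptide gene, fell by a similar amount in both lines. It had 1.08 and 1.19 CPM in heated hsfa1x and 10.3 and 10.9 CPM in its controls, a log2 change of -3.20 ± 0.22 SE. In hsfb1 it had 3.30 and 3.49 CPM with heat and 34.7 and 30.3 CPM without (-3.25 ± 0.17 SE). The heated levels in hsfb1 were about as high as the 3.34 and 4.17 CPM of heated hsfa1y, and those in hsfa1x about as low as the 1.10 and 1.08 CPM of heated BC3 and the 1.04 and 1.30 CPM of heated Tak-1. Heated and control libraries did not overlap in hsfa1x or hsfb1. They did not overlap in hsfa1y, BC3 and Tak-1 either, but the ratios in those lines chose the members.

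The auxin-named MpSAUR14 stood apart between the lines. In hsfa1x it had 1.73 and 1.79 CPM with heat and 1.32 and 2.37 CPM without, so the groups overlapped (log2 change -0.04 ± 0.31 SE, edgeR adjusted p = 0.941). In hsfb1 it had 5.996 and 7.08 CPM with heat and 21.8 and 23.99 CPM without (-1.80 ± 0.20 SE), with no overlap. Heated hsfb1 thereby kept more of this transcript than heated BC3 (0.927 and 1.04 CPM) or heated Tak-1 (0.468 and 0.898 CPM), where controls stood at 5.21 and 7.80 CPM in BC3 and 17.02 and 18.3 CPM in Tak-1. The BC3 and Tak-1 levels are among the values that chose the members. Its near neighbour MpSAUR12 (Mp1g27940) had 1.08 and 1.74 CPM in heated hsfa1x and 1.97 and 4.20 CPM in its controls (-1.11 ± 0.37 SE, edgeR adjusted p = 0.0185). That call was lost without heat replicate 1 (adjusted p = 0.170), without control replicate 2 (log2 change -0.51, adjusted p = 0.382) and with the 4 hsfa1x libraries fitted alone (adjusted p = 0.0531), and its adjusted p over the alternatives ran from 0.000635 to 0.382. In hsfb1 MpSAUR12 had 2.55 and 1.82 CPM with heat and 8.61 and 9.66 CPM without (-2.06 ± 0.32 SE).

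MpPOD26, the peroxidase gene, fell more in hsfa1x than in hsfb1. It had 35.001 and 43.1 CPM in heated hsfa1x and 230.0 and 155 CPM in its controls (log2 change -2.29 ± 0.14 SE). In hsfb1 it had 44.9 and 50.9 CPM with heat and 111 and 108 CPM without (-1.19 ± 0.14 SE). The hsfb1 controls were lower than those of Tak-1, which had 37.9998 and 40.1 CPM with heat and 246 and 235 CPM without. For MpGH19.7, the chitinase-family gene, the order was the other way round, with 13.5 and 14.1 CPM in heated hsfa1x and 50.4 and 57.3 CPM in its controls (-1.95 ± 0.10 SE). It had 14.4 and 12.2 CPM in heated hsfb1 and 136 and 143 CPM in its controls (-3.39 ± 0.10 SE). Its heated levels were alike in these lines, and the controls of hsfb1 were higher than the 43.2 and 45.6 CPM of Tak-1 controls. MpIDDL2 had 3.51 and 4.72 CPM in heated hsfa1x and 19.5 and 17.5 CPM in its controls (-2.16 ± 0.20 SE), and 4.50 and 3.18 CPM in heated hsfb1 and 25.1 and 20.6 CPM in its controls (-2.57 ± 0.20 SE). Its heated libraries lay below its control libraries in every line, with 2.36 to 4.76 CPM over all heated libraries and 17.5 to 25.3 CPM over the controls of these 5 lines. In hsfa1y, BC3 and Tak-1 this separation follows largely from the rule, as their ratios chose the members.

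**Figure D2:**
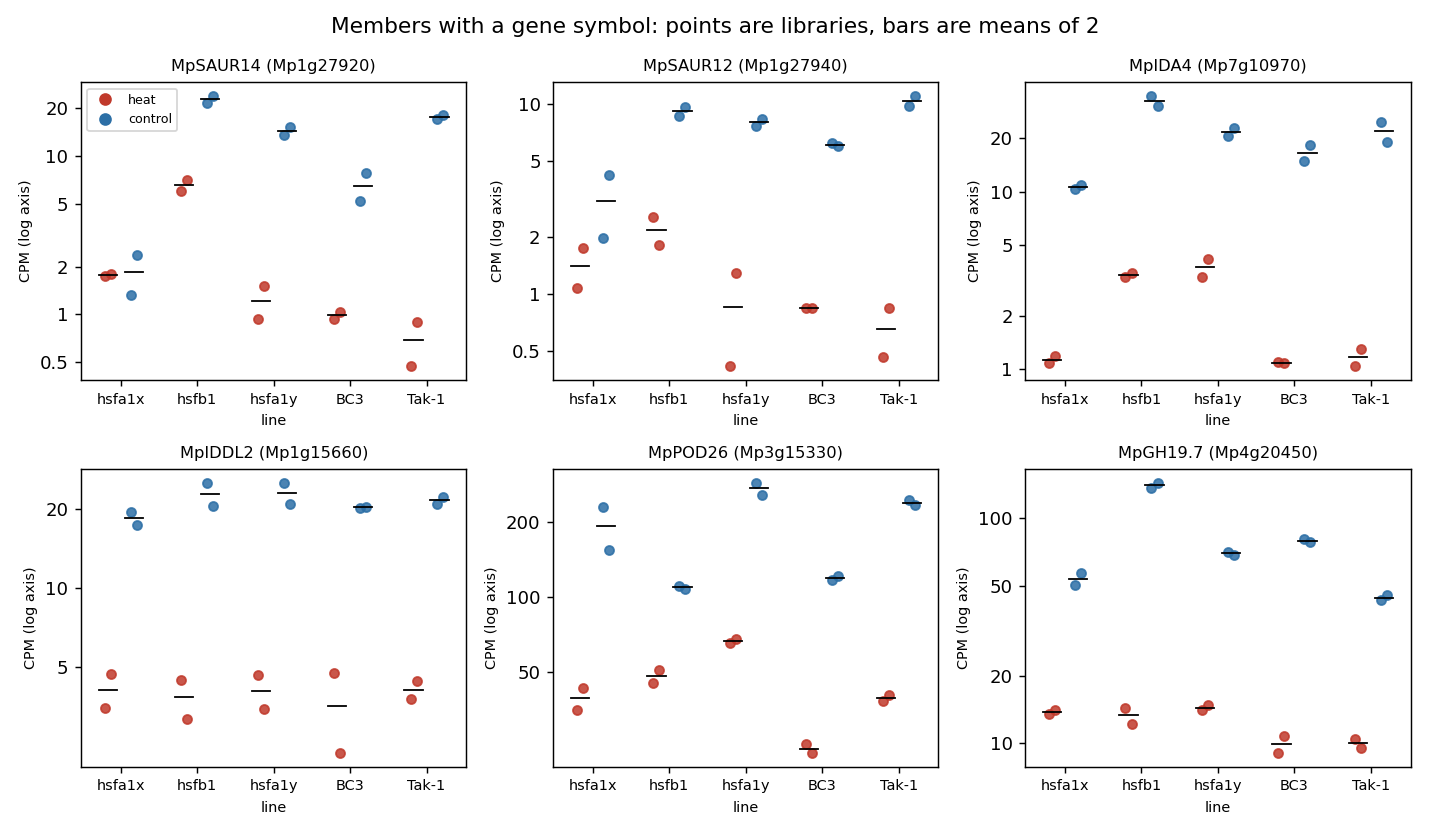
Level in CPM (log axis) of the 6 members with a gene symbol in heated (red) and control (blue) libraries of hsfa1x, hsfb1, hsfa1y, BC3 and Tak-1, with points for libraries and bars for means of 2. Red points lie below blue points in every panel and line except for MpSAUR14 in hsfa1x, and MpGH19.7 has its highest control points in hsfb1 (136 and 143 CPM). The ratios in hsfa1y, BC3 and Tak-1 chose the members.

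Among members without a symbol, the neighbours Mp4g03350 and Mp4g03340 had the largest mean fall over hsfa1x and hsfb1. Mp4g03350 had 0.736 and 0.348 CPM in heated hsfa1x and 8.04 and 8.08 CPM in its controls (log2 change -3.83 ± 0.37 SE), and 0.999 and 0.809 CPM in heated hsfb1 and 8.74 and 9.51 CPM in its controls (-3.32 ± 0.34 SE). Mp4g03340 followed it closely, at -3.74 ± 0.26 SE in hsfa1x and -3.07 ± 0.24 SE in hsfb1. Controls of both genes were highest in hsfa1y, where Mp4g03340 had 16.2 and 16.2 CPM, against 4.20 and 5.41 CPM in Tak-1 controls. Mp5g07500 fell to 2.25 and 3.29 CPM in heated hsfb1, against 44.8 and 44.7 CPM in its controls (-4.01 ± 0.17 SE), the lower end of the range in that line. In hsfa1x it had 1.69 and 2.63 CPM with heat and 14.5 and 12.8 CPM without (-2.66 ± 0.18 SE). Mp5g08770 had 0.996 and 2.28 CPM in heated hsfa1x and 21.7 and 18.1 CPM in its controls (-3.61 ± 0.26 SE), and its log2 change was -2.81 ± 0.26 SE in hsfb1. No function is given for these identifiers in the sources used here.

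Next come members named for their high level in Tak-1 controls. Mp3g19770 had 114 and 114 CPM in heated hsfa1x and 671 and 566 CPM in its controls (log2 change -2.42 ± 0.10 SE). In hsfb1 it had 127 and 146 CPM with heat and 525 and 506 CPM without (-1.92 ± 0.10 SE). Heated and control libraries were far apart in both lines. Mp5g19920 had 55.1 and 55.3 CPM in heated hsfa1x and 416 and 362 CPM in its controls (-2.80 ± 0.12 SE). In hsfb1 it had 88.1 and 106 CPM with heat and 407 and 387 CPM without (-2.03 ± 0.11 SE). Heated hsfb1 kept more of it than heated Tak-1, which had 28.01 and 33.96 CPM. A higher mean in heated hsfb1 than in heated Tak-1 was seen in 25 of the 31 members and in 47.1% of the 10578 genes, and the heated Tak-1 levels are among the values that chose the members. Mp4g15980 had 66.8 and 67.3 CPM in heated hsfa1x and 213 and 355 CPM in its controls (-2.06 ± 0.18 SE), with controls further apart than those of the genes just named. Mp1g09370 changed by a log2 of -2.71 ± 0.09 SE in hsfa1x and -2.89 ± 0.10 SE in hsfb1, and Mp8g12920 by -2.82 ± 0.15 SE in hsfa1x and -3.16 ± 0.16 SE in hsfb1. The 8 members not named by the rule for named genes (Mp2g06090, Mp2g18200, Mp2g18580, Mp2g24580, Mp4g06840, Mp8g06260, Mp8g13650 and Mp8g15850) had log2 changes of -3.59 to -2.24 in hsfa1x and -3.72 to -2.18 in hsfb1.

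Members with the smallest change in hsfa1x had low controls in that line. Mp2g21040 had 6.11 and 6.75 CPM in heated hsfa1x and 6.52 and 6.31 CPM in its controls (log2 change 0.02 ± 0.30 SE, edgeR adjusted p = 0.978). In BC3, the wild type of the same sex, it had 7.46 and 7.07 CPM with heat and 26.7 and 41.4 CPM without. Heated levels were thus close in both lines, and the hsfa1x controls stood at 0.2001 of BC3 controls. In hsfb1, by contrast, it kept 38.2 and 55.3 CPM with heat, against 78.3 and 96.1 CPM in its controls (-0.90 ± 0.20 SE). Heated Tak-1 held 4.95 and 4.94 CPM and its controls 119.6 and 126 CPM, and the BC3 and Tak-1 levels are among the values that chose the members.

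Mp7g02470 had 0.217 and 0.447 CPM in heated hsfa1x and 0.759 and 0.701 CPM in its controls (log2 change -1.14 ± 0.68 SE, edgeR adjusted p = 0.194). These rest on 14 reads over both heated libraries and 28 over both controls. BC3 had 0.421 and 0.283 CPM with heat and 4.45 and 6.56 CPM without. Mp2g25910 fell to 2.25 and 2.63 CPM in heated hsfa1x, against 6.27 and 6.36 CPM in its controls (-1.36 ± 0.22 SE), where BC3 had 1.81 and 1.74 CPM with heat and 30.2 and 35.2 CPM without. Mp2g01500 fell to 3.47 and 3.53 CPM, against 12.7 and 8.68 CPM in hsfa1x controls (-1.60 ± 0.21 SE), and BC3 controls held 20.7 and 16.8 CPM. With MpSAUR14 and MpSAUR12, these are the 6 members with a log2 change above that of MpGH19.7 in hsfa1x, and their hsfa1x controls stood at 0.2001 to 0.581 of BC3 controls. In the other 25 members that ratio was 0.645 to 3.02. The hsfa1x controls enter both the fall and this ratio, so the numbers are not independent.

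**Figure D3:**
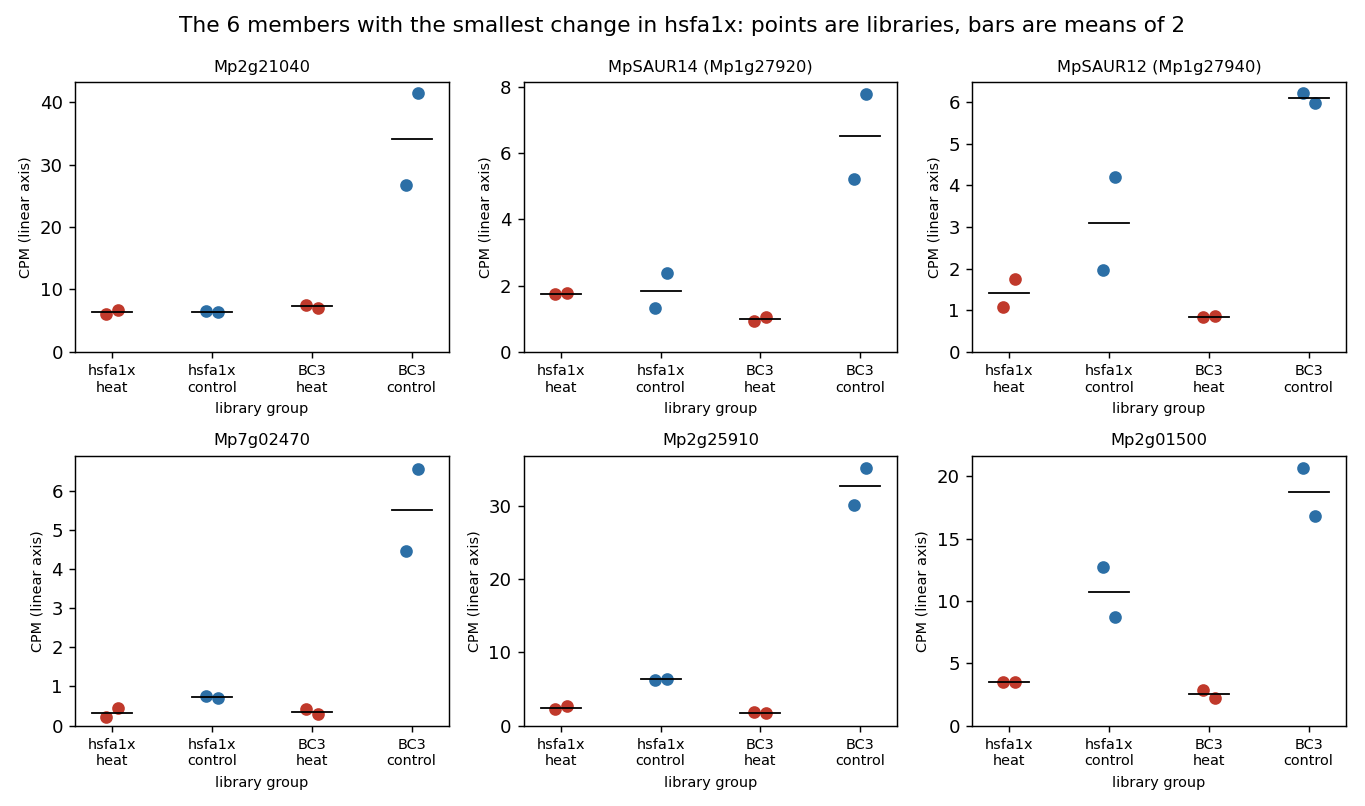
Level in CPM (linear axis from 0) of the 6 members with the smallest change with heat in hsfa1x, in heated (red) and control (blue) libraries of hsfa1x and of BC3, with points for libraries and bars for means of 2. Heated means differ less between the lines than control means, and the control points of hsfa1x lie below those of BC3 in each panel.

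The difference in heat response between hsfb1 and hsfa1x was tested as an interaction. It was called for 10 of the 31 members, 4 of them with a lower response in hsfb1 (2.78% of genes tested) and 6 with a higher one, meaning a smaller fall (3.04% of genes tested). Lower in hsfb1 were MpSAUR14 (log2 difference -1.76 ± 0.37 SE, edgeR adjusted p = 0.00394), Mp2g18580 (-1.48 ± 0.29 SE), MpGH19.7 (-1.44 ± 0.13 SE, edgeR adjusted p = 1.12e-06) and Mp5g07500 (-1.35 ± 0.27 SE). Higher in hsfb1 were Mp1g10250 (1.40 ± 0.14 SE), Mp5g02800 (1.20 ± 0.15 SE), MpPOD26 (1.10 ± 0.19 SE), Mp5g19920 (0.77 ± 0.16 SE), Mp1g21700 (0.65 ± 0.15 SE) and Mp3g19770 (0.51 ± 0.13 SE). Mutation and background sex differ together between these lines and cannot be told apart. The calls of Mp3g19770, Mp1g21700, Mp2g18580 and Mp5g07500 were each lost when some library was left out, with adjusted p up to 0.164 at Mp3g19770, 0.0640 at Mp1g21700, 0.0661 at Mp2g18580 (without hsfb1 heat replicate 2) and 0.0762 at Mp5g07500 (without hsfa1x heat replicate 2), and the other 6 kept theirs in every alternative run.

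Mp5g02800 shows a smaller fall in hsfb1. It had 44.1 and 44.4 CPM in heated hsfb1 and 95.4 and 91.8 CPM in its controls (log2 change -1.08 ± 0.10 SE). In hsfa1x it had 20.2 and 18.1 CPM with heat and 103 and 85.7 CPM without (-2.28 ± 0.11 SE). Controls were similar in these lines and the heated levels were not. Mp1g10250 had 12.9 and 11.2 CPM in heated hsfb1 and 51.6 and 48.8 CPM in its controls (-2.05 ± 0.10 SE). In hsfa1x it had 8.01 and 7.80 CPM with heat and 93.4 and 81.4 CPM without (-3.45 ± 0.10 SE). Here both the heated and the control levels differed between the lines. Mp2g18580 had 1.65 and 0.859 CPM in heated hsfb1 and 18.4 and 14.9 CPM in its controls (-3.72 ± 0.22 SE), against 14.03 and 15.8 CPM in heated hsfa1x and 79.3 and 63.2 CPM in its controls (-2.24 ± 0.14 SE). Mp1g21700 had 40.2 and 46.9 CPM in heated hsfb1 and 136 and 123 CPM in its controls, and 29.8 and 35.5 CPM in heated hsfa1x and 168 and 139 CPM in its controls.

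**Figure D4:**
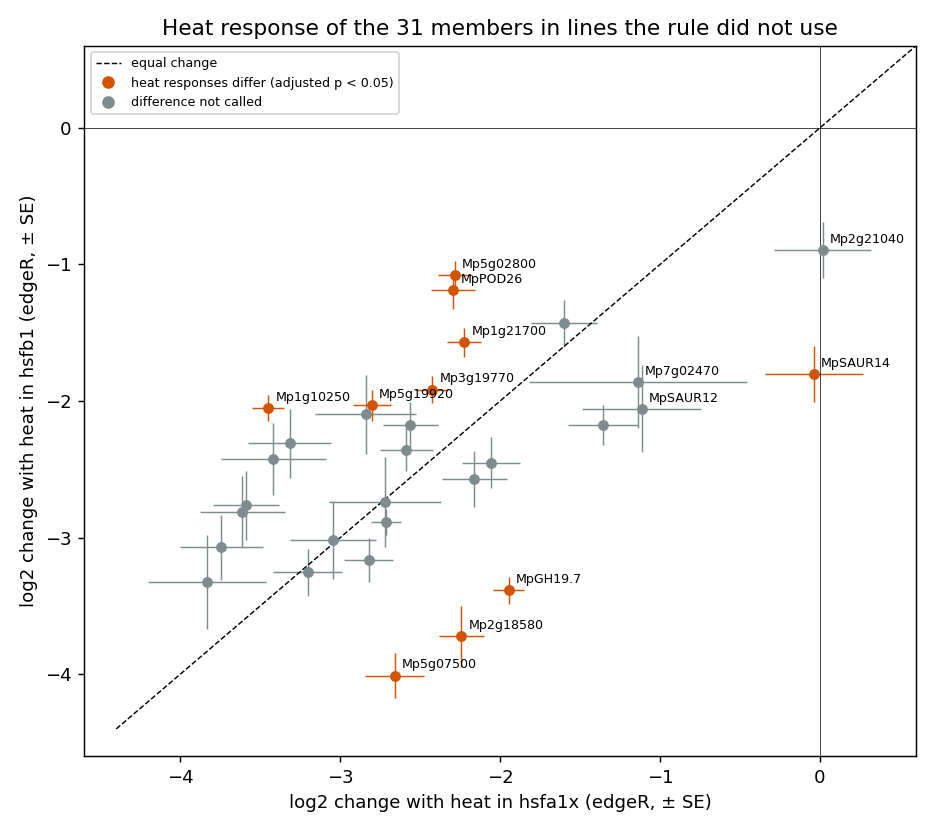
Log2 change with heat of the 31 members in hsfb1 (vertical axis) and in hsfa1x (horizontal axis), each with its SE from edgeR, the dashed line marking equal change. Orange points are the 10 members whose responses differed between the lines at an adjusted p below 0.05, with MpSAUR14, MpGH19.7, Mp2g18580 and Mp5g07500 below the line and 6 above it, and Mp2g21040 and MpSAUR14 lie near 0 in hsfa1x.

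Levels without heat are described without a test, because the wild-type controls chose the members. In hsfa1y the members stood at a median ratio of 1.20 of Tak-1 controls, beside 0.950 over the 10578 genes. Mp4g03340 (ratio 3.15), Mp4g03350 (3.03) and Mp2g24580 (2.10) were at 2 or more, as were 0.473% of the 10578 genes. In hsfb1 the median ratio to Tak-1 was 0.873, beside 0.942 over the 10578 genes. MpGH19.7 (3.12), Mp8g06260 (2.86) and Mp4g03340 (2.02) were at 2 or more in hsfb1, and Mp2g18580 (0.236), Mp2g24580 (0.291) and MpPOD26 (0.457) at 0.5 or less. Of the 10578 genes, 1.64% were at 2 or more in hsfb1 and 1.77% at 0.5 or less. In hsfa1x the median ratio to BC3 was 1.16, beside 0.961 over the 10578 genes, with Mp2g24580 at 3.02 and Mp2g21040, Mp7g02470, Mp2g25910 and MpSAUR14 at 0.5 or less. A ratio of 2 or more in hsfa1x was held by 1.23% of the 10578 genes, and one of 0.5 or less by 0.473%.

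In unheated plants overexpressing HSFA1 genes, the members were mostly below wild type. A ratio of 0.5 or less was held by 20 of 31 members in HSFA1Y overexpression over Tak-1 and by 19 in HSFA1X overexpression over Tak-1, where 5.22% and 3.17% of the 10578 genes held it. Over BC3 the counts were 13 members in HSFA1Y overexpression and 15 in HSFA1X overexpression, where 2.11% and 2.71% of the 10578 genes held it. Median ratios over the members were 0.353 for HSFA1Y and 0.400 for HSFA1X in Tak-1, and 0.553 for HSFA1Y and 0.510 for HSFA1X in BC3. No member was at 2 or more in any of the 4 groups, where 0.851% to 1.65% of the 10578 genes were, too few for a count of 0 among 31 to stand apart. The wild-type controls in these ratios are among the values that chose the members. Both overexpression lines of a background share its control libraries, so their ratios are not independent.

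Mp2g21040 was among the lowest, with 1.85 and 2.93 CPM under HSFA1Y and 5.88 and 10.9 CPM under HSFA1X in Tak-1, against 119.6 and 126 CPM in Tak-1 controls. In BC3 it had 3.76 and 4.59 CPM under HSFA1Y and 2.06 and 2.86 CPM under HSFA1X, against 26.7 and 41.4 CPM in BC3 controls. All overexpression libraries of this gene lay below all wild-type controls of their background. Mp2g24580 had 0.688 and 0.790 CPM under HSFA1Y and 3.69 and 4.17 CPM under HSFA1X in Tak-1, against 35.8 and 33.9 CPM in Tak-1 controls. MpGH19.7 had 17.9 and 19.9 CPM under HSFA1Y and 14.6 and 14.9 CPM under HSFA1X in BC3, against 80.4 and 78.4 CPM in BC3 controls. A ratio below 1 in all 4 groups was held by 25 of the 31 members and by 23.3% of the 10578 genes. The 6 exceptions were Mp1g10250, MpIDDL2, Mp4g06840, Mp4g15980, Mp5g08770 and Mp8g06260. Within a background the groups share wild-type controls, which also chose the members, so the 4 ratios of a gene are not independent. Mp1g10250 had ratios of 1.13 (HSFA1Y) and 1.49 (HSFA1X) in Tak-1 and of 1.34 (HSFA1Y) and 1.22 (HSFA1X) in BC3. MpIDDL2 had ratios of 1.12 (HSFA1Y) and 0.766 (HSFA1X) in Tak-1 and of 0.924 (HSFA1Y) and 1.07 (HSFA1X) in BC3.

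**Figure D5:**
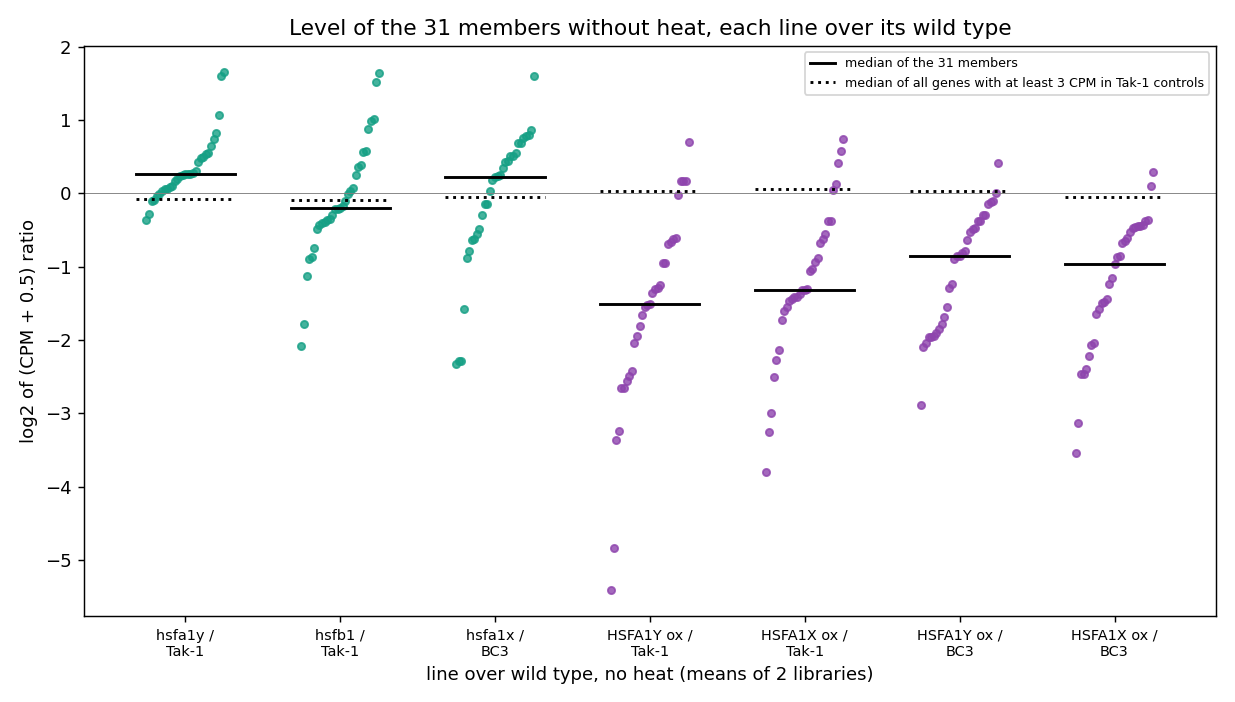
Ratio of the unheated level in each line to that of its wild type, log2 of means with 0.5 CPM added, for the 31 members (points, sorted within a column), with the median of the members (solid bar) and of the 10578 genes with at least 3 CPM in Tak-1 controls (dotted bar). Columns are the knockouts (green) and the overexpression lines (purple), and the solid bar lies well below the dotted bar in the 4 overexpression columns.

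The overexpression lines of HSFA1Y and HSFA1X, whose libraries the rule did not use, were compared with each other without heat. In Tak-1, 11 members were lower under HSFA1Y than under HSFA1X and 4 were higher, beside 9.75% and 7.09% of genes tested (edgeR's quasi-likelihood test). Lower were Mp2g18580 (log2 difference -2.38 ± 0.16 SE), Mp2g24580 (-2.38 ± 0.33 SE), MpSAUR14 (-1.88 ± 0.24 SE, edgeR adjusted p = 5.60e-06), Mp2g21040 (-1.78 ± 0.35 SE) and MpSAUR12 (-1.73 ± 0.32 SE). The other 6 were Mp4g06840, Mp5g02800, Mp5g08770, Mp2g25910, Mp1g10250 and Mp1g21700. MpSAUR14 had 2.17 and 2.59 CPM under HSFA1Y and 8.45 and 9.47 CPM under HSFA1X, and Mp2g18580 had 6.46 and 6.77 CPM under HSFA1Y and 34.8 and 35.6 CPM under HSFA1X. Higher under HSFA1Y were Mp2g18200 (1.12 ± 0.37 SE), MpGH19.7 (0.88 ± 0.10 SE), Mp8g06260 (0.70 ± 0.15 SE) and MpIDDL2 (0.59 ± 0.17 SE). Of the 15 calls 10 were kept in every alternative run. Those of MpIDDL2, Mp1g21700, Mp2g18200, Mp2g25910 and Mp5g08770 were each lost when at least 1 library was left out, and that of Mp2g25910 also with DESeq2 and with RLE size factors.

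In BC3, 0 members were lower under HSFA1Y than under HSFA1X and 3 were higher, beside 4.11% and 2.72% of genes tested (edgeR's quasi-likelihood test). At an unadjusted p under 0.05 there were 9 members in either direction, and DESeq2 called 4. The 3 were Mp2g18200 (1.54 ± 0.35 SE), MpSAUR12 (1.19 ± 0.34 SE) and MpSAUR14 (0.91 ± 0.26 SE). MpSAUR14 had 4.26 and 5.49 CPM under HSFA1Y and 2.48 and 2.45 CPM under HSFA1X. Leaving out any 1 of the 4 libraries left 0 or 1 of these 3 calls. The difference between backgrounds, added after the data were seen, was called for 15 members, 11 lower and 4 higher in Tak-1 than in BC3, beside 10.8% and 9.03% of genes tested. MpSAUR12 (-2.92 ± 0.47 SE), MpSAUR14 (-2.80 ± 0.35 SE), Mp2g24580 (-2.77 ± 0.47 SE) and Mp2g18580 (-2.72 ± 0.23 SE) had the largest differences. Background and line differ together in this contrast and cannot be told apart.

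Genes of the families and pathways of the named members, the members themselves left out, are given by symbol and read against the 22.0% lower and 19.8% higher of all genes tested in hsfa1x, and the 21.6% lower and 18.8% higher in hsfb1. Of 10 other SAUR genes tested 5 were lower and 0 higher with heat in hsfa1x (median log2 change -0.90), and 4 and 0 in hsfb1 (-0.63). MpSAUR13, between the 2 members, was at 0.18 in hsfa1x and -0.26 in hsfb1 and was not called in either. MpSAUR9 was lower in both, at -3.98 in hsfa1x and -2.88 in hsfb1. Of 34 other genes of auxin synthesis, transport and response, a list that holds the SAUR genes too, 15 were lower and 3 higher in hsfa1x (median -0.20), and 14 and 2 in hsfb1 (-0.39). Of 48 other peroxidase genes 13 were lower and 1 higher in hsfa1x (-0.067), and 16 and 1 in hsfb1 (-0.52). Among 11 other genes of glycoside hydrolase family 19, 3 were lower and 0 higher in hsfa1x (-0.19), and 2 and 1 in hsfb1 (-0.18). The member MpGH19.7 had the lowest value of that family in both lines, but it was picked for a large fall with heat in other lines. Its neighbour MpGH19.6 was not called in hsfa1x (-0.50) or in hsfb1 (0.05). The 1 other IDA gene tested was not called in either line (-0.15 in hsfa1x and -1.86 in hsfb1). Of 5 other IDDL genes 3 were lower and 0 higher in hsfa1x, and 2 lower and 1 higher in hsfb1.

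No member carried a symbol of the other lists, whose counts are read against the same shares over all genes tested. Of 269 transcription factor genes 87 were lower and 61 higher with heat in hsfa1x (median -0.04), and 92 and 52 in hsfb1 (-0.06). Of 71 receptor kinase genes 22 were lower and 12 higher in hsfa1x, and 23 and 14 in hsfb1. Of 21 genes of jasmonate and ethylene signalling 6 were lower and 2 higher in hsfa1x, and 7 and 2 in hsfb1. Of 45 immune-type genes 16 were lower and 8 higher in hsfa1x, and 15 and 11 in hsfb1. Of 28 cell wall genes 8 were lower and 6 higher in hsfa1x, and 11 and 4 in hsfb1. Of 122 phenylpropanoid genes 31 were lower and 30 higher in hsfa1x, and 36 and 17 in hsfb1. Histone genes were lower in 12 and higher in 2 of 25 cases in hsfa1x, and in 16 and 2 in hsfb1. Cell cycle genes were lower in 1 and higher in 1 of 24 cases in hsfa1x, and in 8 and 0 in hsfb1. Near those shares in both lines, transporter genes were lower in 25 and higher in 26 of 111 cases in hsfa1x, and in 24 and 23 in hsfb1. The calcium list held 1 gene, which was higher in hsfa1x (1.68) and lower in hsfb1 (-0.34).

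Summed markers of special organs and cells were read beside these falls. The oil body cell markers C1HDZ, SYP12B, ERF13 and ABCG1 summed to 24.2 to 30.5 CPM in heated hsfa1x and 33.4 to 35.8 CPM in its controls, and to 22.9 to 23.9 CPM in heated hsfb1 and 27.7 to 31.8 CPM in its controls. Of these 4 markers, 1 was called lower with heat in hsfa1x and 0 in hsfb1, and 0 were called higher in either line. The reproductive markers DUO1, RKD and PRM summed to 60.7 to 61.6 CPM in heated hsfa1x and 72.6 to 82.1 CPM in its controls, and to 41.2 to 43.6 CPM in heated hsfb1 and 64.4 to 66.2 CPM in its controls, with PRM at 0 in hsfb1 and in hsfa1x controls. The gemma markers KAR and GCAM1 summed to 14.9 to 15.3 CPM in heated hsfa1x and 9.81 to 13.8 CPM in its controls, and to 13.4 to 13.7 CPM in heated hsfb1 and 11.8 to 14.5 CPM in its controls. The reproductive and gemma sums join markers with unlike changes. Among the 2 reproductive markers tested, 1 was lower and 1 higher with heat in each line. Their log2 changes were -0.37 and 1.79 in hsfa1x, and -0.70 and 2.14 in hsfb1. For the 2 gemma markers they were -0.05 and 1.45 in hsfa1x, and -0.44 and 1.82 in hsfb1. In each line only the higher gemma value was called. The part of these shifts in the falls of the members was not tested.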

How the data were processed

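The authors deposited whole-number read counts per gene, with no normalization, for the 28 libraries used here. Per the submitters' processing notes, STAR was the aligner. The counting program, genome build, strandedness and handling of multiply mapped or duplicate reads are not stated in the labels. One identifier present more than once was summed, which left 20574 genes, of which 17641 matched a locus tag of the reference (MpTak2_v7.1) used for symbols. The series' other tables and its chromatin samples were not used here.

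The members and the gene lists were chosen with earlier results of these data known, and the SAUR, glycoside hydrolase, IDA and IDDL lists were added for the members that carry those symbols. Printed levels are CPM over the column sum, and ratios add 0.5 CPM to each group mean. Counts were tested with edgeR 4.0.16 (R 4.3.3) by its quasi-likelihood F test. Library sizes were scaled by TMM (factors 0.932 to 1.07), filterByExpr kept 13432 genes with 99.98% of reads, and the model had 1 mean for each of the 14 groups. The p-values were adjusted by Benjamini-Hochberg over all genes tested and called below 0.05. Contrasts of Tak-1, BC3 and hsfa1y libraries got no test. Lists are described by counts and medians. Precision is limited by 2 libraries a group.

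Named by rule were 23 members: those with a symbol, the 10 highest in Tak-1 controls, the 5 largest and 5 smallest mean falls over hsfa1x and hsfb1, those not called in either line, and the 3 just inside the limit. Genes outside this rule that a contrast between lines called, or that are named for levels without heat, were chosen after their values were seen. Alternatives were RLE size factors, library totals, DESeq2 1.42.0, no low-count filter, a replicate block, fits of 4 libraries, other membership limits and scaling, a 2-fold minimum and leaving out each library.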

Additional observations from a re-analysis of the deposited data

Results flagged for a closer look

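The heat response differed between hsfb1 and hsfa1x in 10 members, by the interaction in edgeR. Of genes tested, 2.78% were called lower in hsfb1 and 3.04% higher. Mutation and background sex differ together between these lines and cannot be told apart. The log2 difference, hsfb1 minus hsfa1x, was -1.76 for MpSAUR14 (Mp1g27920), -1.48 for Mp2g18580, -1.44 for MpGH19.7 (Mp4g20450) and -1.35 for Mp5g07500. It was 1.40 for Mp1g10250, 1.20 for Mp5g02800, 1.10 for MpPOD26 (Mp3g15330), 0.77 for Mp5g19920, 0.65 for Mp1g21700 and 0.51 for Mp3g19770. Calls of Mp1g21700, Mp2g18580, Mp3g19770 and Mp5g07500 were each lost when some library was left out, and the other 6 were kept in every alternative run.

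The difference between HSFA1Y and HSFA1X overexpression without heat differed between Tak-1 and BC3 in 15 members. Of genes tested, 10.8% were called lower in Tak-1 than in BC3 and 9.03% higher. Background and line differ together here and cannot be told apart. The log2 value, Tak-1 minus BC3, was -2.92 for MpSAUR12 (Mp1g27940), -2.80 for MpSAUR14 (Mp1g27920), -2.77 for Mp2g24580, -2.72 for Mp2g18580, -2.47 for Mp2g21040 and -1.49 for Mp2g06090. Smaller negative values were -1.10 for Mp5g02800, -0.97 for Mp5g08770, -0.89 for Mp4g06840, -0.59 for Mp1g21700 and -0.45 for Mp1g10250. Positive values were 1.11 for Mp8g06260, 1.03 for Mp8g15850, 0.86 for MpIDDL2 (Mp1g15660) and 0.59 for MpGH19.7 (Mp4g20450). Calls of Mp2g06090, Mp5g08770, Mp8g15850, MpIDDL2 and Mp1g10250 were each lost when at least 1 library was left out, that of Mp8g15850 also with library totals and with DESeq2, and the other 10 were kept in every alternative run.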

How the results depend on the processing

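The number of members lowered by heat was 27 or 28 in hsfa1x and 30 or 31 in hsfb1 under every alternative that kept the 31 members. With members chosen at a ratio of 0.2 it was 13 of 14 in hsfa1x and 14 of 14 in hsfb1, at 0.33 it was 61 of 64 and 64 of 64, and with TMM-scaled CPM 27 of 30 and 30 of 30, which follows from the size of the set. Members called for hsfb1 against hsfa1x numbered 10, and 7 to 11 with a library left out. For HSFA1Y against HSFA1X overexpression the 15 calls in Tak-1 became 10 to 14 with a library left out. The 3 calls in BC3 became 0 to 1 with a library left out, 5 with library totals and 9 without the low-count filter, and the cause was not tested. For the difference between backgrounds the 15 calls became 10 to 15 with a library left out. The sign turned in values near 0 that were not called in hsfa1x, for Mp2g21040 (-0.032 without heat replicate 2, and -0.036 to 0.065 over libraries left out) and MpSAUR14 (Mp1g27920, -0.39 to 0.41 over libraries left out). Over single genes and alternatives, 1039 of 1107 values kept their direction and call, 65 lost the call and 3 turned sign. Libraries with the same replicate number did not deviate together (correlations of -0.126 to 0.0324). This was checked for heat and control of hsfa1x and of hsfb1, and for the overexpression lines within each background. It gave no sign of pairing by number but cannot exclude it. With the replicate number as a block the counts were 28 in hsfa1x, 31 in hsfb1, 12 for hsfb1 against hsfa1x, 16 in Tak-1, 3 in BC3 and 15 for the difference between backgrounds. The planned comparison after 1 and 5 h in another table was not run, because its identifiers were not paired with those used here.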
